A study of Mus musculus with 61 samples.

Results

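The genes described are the proteasome and immunoproteasome subunits and their helpers, taken as every gene whose symbol starts with Psm, then a letter from a to g, then a digit. The rule found 49 of the 21169 genes in the table, and all 49 passed the filter on low counts, which left 18603 genes for testing. Their RNA levels were compared in adipose tissue of 8 mouse strains, the founders of the Diversity Outbred population, over 61 poly(A) RNA libraries. There were 8 libraries for each strain except 129, AJ and Cast, which had 7; the others were B6, NOD, NZO, PWK and WSB. All mice had been put on a high-fat, high-sugar diet, labelled 45 percent fat, and no group on another diet is in the comparison. The labels name no fat depot, sex, age or sequencing batch, and they do not say that each library came from its own mouse, so p-values measure the spread between libraries.

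The proteasome is the protease that degrades proteins tagged with ubiquitin. Its core particle, the 20S, is a barrel of outer rings of alpha subunits and inner rings of beta subunits, and its cap, the 19S, binds the tagged protein, unfolds it with a ring of ATPases and feeds it in. Interferon gamma induces 3 replacement beta subunits, Psmb8, Psmb9 and Psmb10, which are built into new particles in place of the constitutive catalytic subunits Psmb5, Psmb6 and Psmb7. The particle that holds them, the immunoproteasome, is abundant in leukocytes and cuts peptides that suit display on major histocompatibility complex (MHC) class I. Fat tissue holds adipocytes beside macrophages, other leukocytes, vessel cells and mesothelium.

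Library totals ran from 19851580 to 61277576 counts. Levels are given as CPM, counts relative to the library size, scaled by TMM, a method that assumes most genes are alike. Of the libraries, 12 had high sums of markers of other tissues (liver markers over 500 CPM, or epididymal duct or skeletal muscle markers over 300 CPM). They are called rich in other tissues below, by these chosen limits alone, and only 2 of the 8 listed duct markers are in the table. The defining adipocyte genes were high in sum in every strain: 8 adipocyte markers summed to strain medians between 18570 CPM in NZO and 28200 CPM in Cast. Single markers differed widely. Lep averaged 62.2 CPM in Cast and 105 CPM in WSB, against 966 to 1811 CPM in the other strains. Cfd averaged 311 CPM in NZO and 6371 CPM in WSB. In NZO 6 of the 8 were lower and 1 higher than in the other strains. Markers of leukocytes stood apart in NZO, where 15 of them summed to a median of 2514 CPM (1141 to 3344), against strain medians of 274 CPM in Cast to 597 CPM in AJ. In RNA from whole tissue, fewer cells of a type and less RNA per cell cannot be told apart.

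The 3 inducible catalytic subunits had their highest means in NZO and AJ. The lowest mean was that of Cast for Psmb8 and Psmb9 and that of WSB for Psmb10 (19.9 CPM, beside 21.2 CPM in Cast). In NZO all 3 were higher than the mean of the other 7 strains. In Cast all 3 were lower. In AJ Psmb8 and Psmb9 were higher, and these calls did not hold without the 12 libraries rich in other tissues. In WSB only Psmb10 passed the test, on the low side, and with library totals in place of TMM all 3 did (-0.46 for Psmb8, -0.39 for Psmb9 and -0.62 for Psmb10). On that scale the median of all tested genes in WSB was itself -0.24, and 41.4% of them were lower. In NZO and Cast all 3 calls held on library totals, where 43.2% of all genes were higher in NZO and 28.9% lower in Cast.

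Psmb8 (ENSMUSG00000024338, GRCm38 chr17:34197721-34201454, plus strand, in the MHC region) supplies the chymotrypsin-like activity of the immunoproteasome. The lowest, median and highest Psmb8 levels were 37.3, 64.1 and 83.0 CPM in NZO, 43.9, 46.0 and 78.8 CPM in AJ, 32.0, 40.0 and 61 CPM in PWK, and 24.4, 37.1 and 49.9 CPM in NOD. They were 30.0, 37.2 and 41.5 CPM in B6, 26.1, 32.6 and 47.1 CPM in 129, 28.3, 33.4 and 43.4 CPM in WSB, and 17.5, 24.3 and 43.2 CPM in Cast. The NZO libraries were mostly the high ones and the Cast libraries mostly the low ones, but ranges of neighbouring strains in the order of means overlapped at every step. Against the mean of the other 7 strains, the log2 fold change of Psmb8 was 0.77 ± 0.12 (SE, adjusted p = 1.28e-07) in NZO, with 7 of 8 libraries above the median of all others. It was 0.43 ± 0.13 (adjusted p = 0.00803) in AJ with 7 of 7 above, and -0.73 ± 0.14 (adjusted p = 1.22e-05) in Cast with 1 of 7 above. The remaining contrasts ran from -0.22 in WSB to 0.16 in PWK and did not pass.

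Psmb9 (ENSMUSG00000096727, chr17:34181988-34187764, minus strand) replaces the caspase-like subunit and lies beside Psmb8 in the MHC region. Its lowest, median and highest levels were 16.6, 18.8 and 30.6 CPM in AJ, 12.7, 20.8 and 27.9 CPM in NZO, 11.4, 15.6 and 19.4 CPM in B6, and 9.64, 15.3 and 19.1 CPM in 129. They were 9.26, 15.5 and 19.7 CPM in NOD, 13.1, 14.4 and 18.4 CPM in PWK, 10.3, 13.4 and 17.8 CPM in WSB, and 5.51, 9.23 and 11.4 CPM in Cast. None of the 7 Cast libraries lay above the median of the others, and the 5 middle strains were close together. The log2 fold change of Psmb9 was 0.52 ± 0.13 (adjusted p = 0.00129) in AJ, 0.50 ± 0.12 (adjusted p = 0.000377) in NZO and -0.82 ± 0.14 (adjusted p = 2.39e-06) in Cast. The Psmb9 estimates were not whole numbers in 91.8% of libraries, and the search for similar transcripts found none over 50% of its length. With the 12 libraries left out, the AJ values were 0.23 ± 0.16 (adjusted p = 0.371) for Psmb8 and 0.29 ± 0.16 (adjusted p = 0.227) for Psmb9.

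Psmb10 (ENSMUSG00000031897, chr8:105935728-105938392, minus strand) replaces the trypsin-like subunit. Lowest, median and highest levels of Psmb10 were 23.4, 32.2 and 38.3 CPM in NZO, 25.8, 26.4 and 34.1 CPM in AJ, 24.5, 27.5 and 30.8 CPM in B6, and 20.7, 25.5 and 31.3 CPM in NOD. They were 19.8, 23.7 and 30.3 CPM in PWK, 18.8, 22 and 26.6 CPM in 129, 10.8, 20.6 and 32.7 CPM in Cast, and 14.3, 19.9 and 23 CPM in WSB. Psmb10 varied least of the 3 between strains, its WSB libraries all lay below the median of the others, and neighbours in the order overlapped. Its log2 fold change was 0.41 ± 0.09 (adjusted p = 0.00016) in NZO, -0.28 ± 0.10 (adjusted p = 0.018) in Cast and -0.39 ± 0.10 (adjusted p = 0.00095) in WSB. Per kilobase of transcript, mean levels over the 61 libraries were 25.4 CPM for Psmb8, 11.6 CPM for Psmb9 and 19.4 CPM for Psmb10. On the same scale the constitutive partners stood at 51.3 CPM for Psmb5, 76.3 CPM for Psmb6 and 84.4 CPM for Psmb7, so each partner was above its inducible counterpart.

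**Figure D1:**
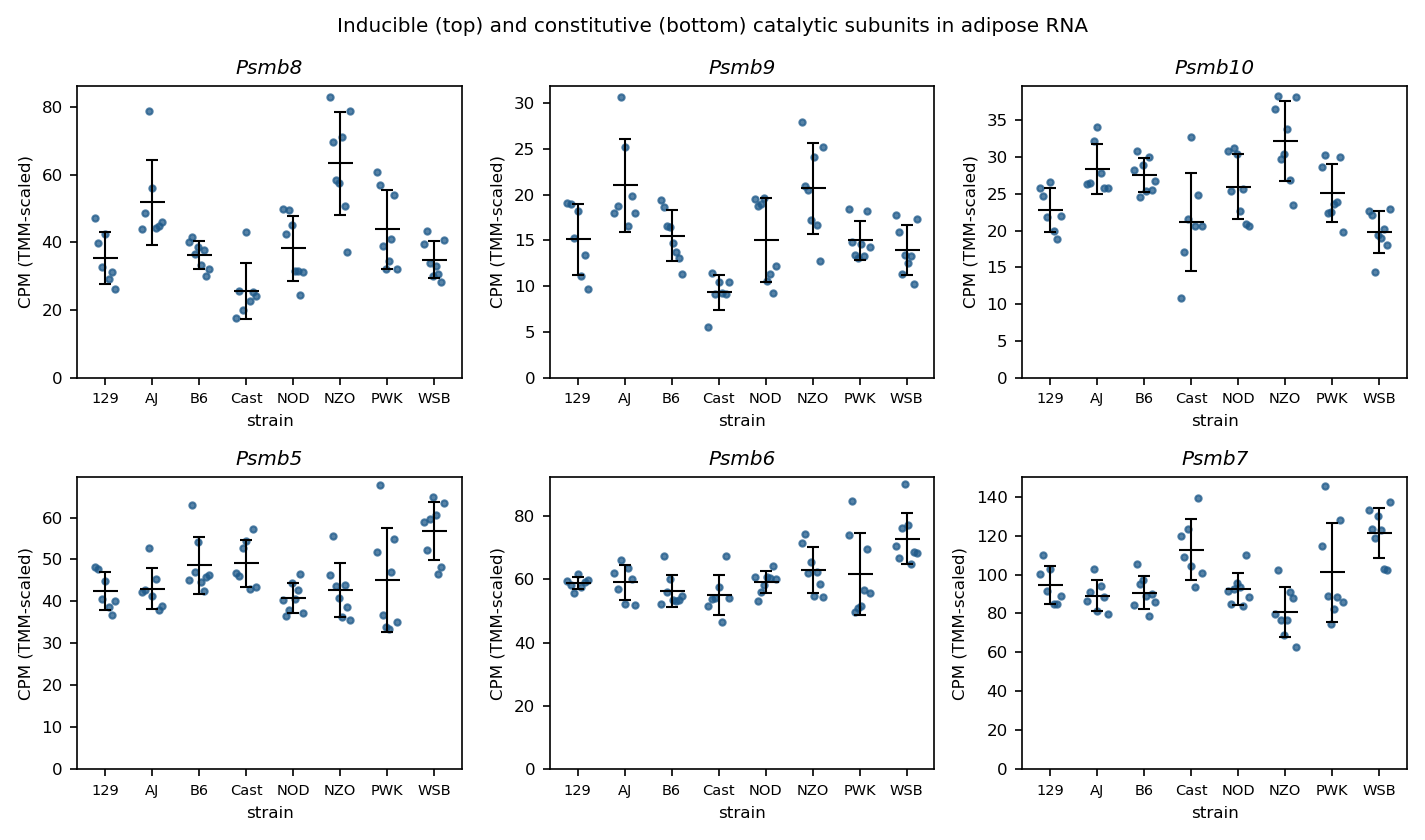
CPM (TMM-scaled, linear axes from 0) of the inducible subunits Psmb8, Psmb9 and Psmb10 in the top row and their constitutive partners Psmb5, Psmb6 and Psmb7 in the bottom row, by strain; each point is a library, and the bar is the mean with its SD. NZO holds the highest mean of Psmb8 (63.4 CPM) and Cast the lowest (25.5 CPM), while the constitutive subunits are highest in WSB.

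The constitutive catalytic subunits had another order of strains. Psmb5 carries the chymotrypsin-like activity, and its lowest, median and highest levels in WSB were 46.6, 59.4 and 65.0 CPM, against strain means between 40.8 CPM in NOD and 49.1 CPM in Cast elsewhere. Psmb6, the caspase-like subunit, had 64.9, 69.7 and 90.1 CPM in WSB, and other strain means from 55.1 CPM in Cast to 62.9 CPM in NZO. Psmb7, the trypsin-like subunit, had 103, 123 and 137 CPM in WSB, 93.6, 109 and 139 CPM in Cast, and 62.8, 78.1 and 103 CPM in NZO. All 8 WSB libraries lay above the median of the others for each of these 3 genes, and the ranges of WSB still overlapped those of other strains. The log2 fold change in WSB was 0.36 ± 0.08 for Psmb5 (adjusted p = 0.000154), 0.31 ± 0.06 for Psmb6 (adjusted p = 3.23e-05) and 0.37 ± 0.07 for Psmb7 (adjusted p = 3.33e-05). With library totals in place of TMM these values were 0.13, 0.08 and 0.14, and only Psmb7 still passed (adjusted p = 0.0166). In NZO Psmb7 was lower at -0.30 ± 0.08 (adjusted p = 0.000757), a call that did not hold with library totals (-0.09, adjusted p = 0.118). In Cast Psmb7 was called higher (0.25) and Psmb6 lower (-0.16) under TMM.

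The ratio of an inducible subunit to the partner it replaces is taken within a library, so it does not depend on how libraries are scaled. Psmb8 over Psmb5 ran on the log2 scale from -0.99 ± 0.38 (SD, n = 7) in Cast and -0.71 ± 0.25 (n = 8) in WSB to 0.24 ± 0.21 (n = 7) in AJ and 0.54 ± 0.41 (n = 8) in NZO. Between them lay B6 at -0.42 ± 0.18, 129 at -0.28 ± 0.20, NOD at -0.13 ± 0.45 and PWK at -0.04 ± 0.16. Cast and WSB thus formed the low end and AJ and NZO the high end, with 3 of 8 NZO libraries above every library of another strain and 3 of 7 Cast libraries below every other. The difference between Cast and NZO was -1.53 (exact permutation test, 2-sided, p = 0.000155, adjusted p = 0.00119, the smallest p that 7 against 8 libraries allow). Cast and WSB differed by -0.28 (exact permutation test, adjusted p = 0.14) and AJ and NZO by -0.30 (exact permutation test, adjusted p = 0.14), so neither end was resolved further. Of the 28 pairs of strains, 21 differed.

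Psmb9 over Psmb6 ranged from -2.58 ± 0.35 (SD, n = 7) in Cast and -2.40 ± 0.35 (n = 8) in WSB to -1.63 ± 0.39 (n = 8) in NZO and -1.51 ± 0.33 (n = 7) in AJ. The order of the ends was again Cast and WSB below NZO and AJ, but the spread within strains was wide and NOD, at -2.03 ± 0.52, passed against no other strain. The NOD libraries formed 2 sets that did not overlap in this ratio: replicates 1 to 4 had -1.63 to -1.50 and replicates 5 to 8 had -2.79 to -2.30, with Psmb9 at 18.8 to 19.7 CPM and 9.26 to 12.2 CPM. Xist, the RNA that coats the inactive X chromosome, was at 489 to 627 CPM in the first NOD set and 0.378 to 6.87 CPM in the other. The split was not particular to NOD: in 129, replicates 1 to 4 had ratios of -1.86 to -1.61 and replicates 6, 7 and 9 had -2.63 to -2.14. In the remaining strains the ratio overlapped between replicates up to 4 and later ones. Psmb9 levels were likewise apart in 129 (15.3 to 19.1 and 9.64 to 13.4 CPM) and in B6 (16.4 to 19.4 and 11.4 to 14.7 CPM). In the whole series Xist was over 300 CPM in 30 libraries and under 100 CPM in the other 31, with 3 or 4 high libraries in each strain. The calls of Psmb8, Psmb9 and Psmb10 in NZO, AJ, Cast and WSB given above held with log2 Xist as a covariate. Psmb9 over Psmb6 differed in 13 of 28 pairs. Psmb10 over Psmb7 was lowest in WSB at -2.62 ± 0.21 (n = 8), followed by Cast at -2.47 ± 0.55 (n = 7), and highest in NZO at -1.33 ± 0.38 (n = 8), where 4 of 8 libraries exceeded every library of another strain. WSB and NZO differed by 1.29 (exact permutation test, p = 0.000155, adjusted p = 0.00119), and 19 of 28 pairs differed. The 84 tests of the 3 ratios were adjusted together, and 53 passed. With log2 Xist removed from the ratios, an alternative chosen after seeing the NOD values, 55 passed, among them 2 of the 7 pairs of NOD for Psmb9 over Psmb6 (exact permutation tests).

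**Figure D2:**
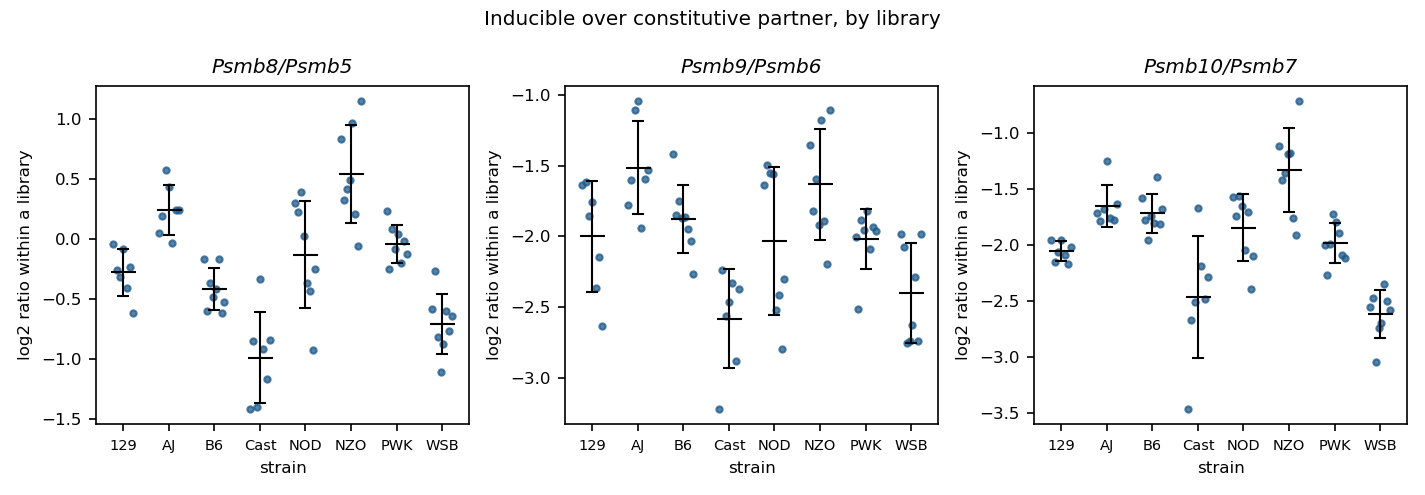
Log2 ratio of each inducible subunit to the constitutive partner it replaces, within each library (points), with the strain mean and SD; the y axis is in log2 units. Cast and WSB are at the low end and NZO and AJ at the high end of all 3 ratios, for Psmb8/Psmb5 from -0.99 in Cast to 0.54 in NZO.

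Markers of leukocytes moved with part of this order. NZO had the highest summed leukocyte, macrophage (median 4899 CPM) and T and NK cell markers (median 23.8 CPM), and Cast had the lowest summed leukocyte (274 CPM), T and NK cell (0.961 CPM) and B cell markers (10.5 CPM). All 15 leukocyte and 8 macrophage markers were detected and tested. WSB had a median of 293 CPM of leukocyte markers and the lowest median of macrophage markers (750 CPM). All 15 leukocyte and 7 of 8 macrophage markers were lower in WSB, where 23.7% of all genes were lower. Of 8 T and NK cell markers, 4 were higher and 1 lower in WSB. AJ, with a mean Psmb9 level of 21 CPM beside 20.7 CPM in NZO, had a median of 597 CPM of leukocyte markers, and B6 had 584.5 CPM. The NZO libraries had 1141 to 3344 CPM of leukocyte markers, a range that elsewhere only B6 replicate 6 (1674 CPM) and NOD replicate 6 (1204 CPM) reached. A fit with the log2 sum of these markers as a covariate therefore cannot separate strain from leukocyte content in NZO. With that covariate, Psmb8 in NZO was at 0.94 ± 0.21 (adjusted p = 0.000661), against 0.77 without it. Psmb9 in NZO was at 0.79 ± 0.22 (adjusted p = 0.00442), against 0.50 without it. Psmb10 no longer passed in NZO (0.35 ± 0.16 against 0.41 without the covariate, adjusted p = 0.0952) or Cast (-0.26 ± 0.11, adjusted p = 0.0506). Psmb7 in Cast, higher at 0.25 without the covariate, was at 0.00 with it (adjusted p = 0.96). Within strains, the Pearson correlation with that sum was positive in 2 of 8 strains for Psmb8 and Psmb9 and in 4 of 8 for Psmb10, from -0.943 to 0.852. Of these 24 relations, 1 passed an exact permutation test after adjustment (Psmb9 in 129, r = -0.943, adjusted p = 0.0476), and with the 2 libraries farthest from the median left out that r was -0.716. In 129, replicates 6, 7 and 9 had leukocyte sums of 530 to 1082 CPM and Psmb9 at 9.64 to 13.4 CPM. Replicates 1 to 4 had 312 to 445 CPM and 15.3 to 19.1 CPM. Replicates 6, 7 and 9 are also the 129 libraries rich in markers of other tissues, so these differences cannot be told apart. Spearman's rho for Psmb9 in 129 was -0.786 (exact permutation test, adjusted p = 0.256), and no relation passed by rho.

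Genes that act after the proteasome in antigen display were taken from a list of 9 for peptide loading. They numbered 5 higher and 2 lower in NZO, 4 higher and 1 lower in AJ, and 2 higher and 4 lower in Cast. Of all genes tested, 27.2% were higher and 26.6% lower in NZO, 13.4% and 9.59% in AJ, 29.6% and 26.6% in Cast, and 25.6% and 23.7% in WSB. Tap1, part of the pump that carries peptides into the endoplasmic reticulum and a neighbour of Psmb9, averaged 48.3 CPM in NZO and 17.6 CPM in Cast (log2 fold change 0.77, adjusted p = 2.57e-09, and -0.89, adjusted p = 1.54e-08). B2m, the light chain of MHC class I, averaged 1508 CPM in NZO, 1464 CPM in AJ and 742.5 CPM in Cast, at 0.39, 0.34 and -0.78 on the log2 scale, and all 3 passed. Tap1, Tap2 and B2m were each higher in NZO and AJ and lower in Cast. Other listed genes went the other way. Erap1 (-0.33) and Tapbpl (-0.22) were lower in NZO, Calr (-0.49) was lower in AJ, and Canx (0.28) and Pdia3 (0.29) were higher in Cast. In WSB Tap1 did not pass (0.14, adjusted p = 0.273) and B2m was lower (-0.39, adjusted p = 0.000437). Of 14 tested genes of interferon gamma signalling, 10 were higher and 0 lower in NZO, 3 higher and 7 lower in Cast, and 1 higher and 7 lower in WSB, to be read against the same shares of all genes. Nlrc5, the activator of MHC class I genes, averaged 49.1 CPM in NZO and 23.4 CPM in Cast (0.63, adjusted p = 0.0002, and -0.59, adjusted p = 0.00273). The 3 higher in Cast were Cxcl10 (1.26), Gbp2 (0.38) and Gbp3 (0.47).

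With strain means removed, the patterns over 61 libraries that were most like Psmb8 among 10651 genes were Tap2 (Pearson r = 0.851), Tap1 (0.818), H2-Q7 (0.818), Parp12 (0.812) and Parp10 (0.802). The closest to Psmb9 were H2-Q7 (0.857), Tap1 (0.803), Uba7 (0.784), Parp10 (0.745) and Gbp3 (0.73). The closest to Psmb10 were Tap2 (0.754), Rtp4 (0.731), Parp12 (0.726), Parp10 (0.723) and Uba7 (0.664). Psmb8, Psmb9, Tap1, Tap2 and H2-Q7 all lie on chromosome 17. These are descriptions over libraries that share strains, scaling and cell content.

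RefSeq start sites (build GRCm38.p6) gave a 250-base window upstream for 41 of the 49 members. Stretches of the catalytic subunits that had a window are shown, and Psmb7 had none. They come from the reference genome, so they hold no difference between the strains. Capitals mark matches, on either strand, to motifs of factors of the interferon and stress responses, an interferon-stimulated response element (GAAANNGAA), a gamma-activated site (TTCNNNGAA) and an antioxidant response element (TGACNNNGC), and to 2 motifs common in promoters, a CCAAT box and a site of nuclear respiratory factor 1 (GCGCNTGCG). Nuclear respiratory factor 1 is another protein than Nfe2l1, the regulator of proteasome genes. The windows of Psmb8 and Psmb9 lie within annotated GENCODE exons, and that of Psmb9 also meets an exon of Tap1, so a short stretch around the match stands for each.
Psmb8, chr17:34198088-34198116, plus strand: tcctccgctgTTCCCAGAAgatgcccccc
Psmb9, chr17:34187331-34187348, minus strand: gcagccgctgATTGGaaa
Psmb10, chr8:105938445-105938642, minus strand: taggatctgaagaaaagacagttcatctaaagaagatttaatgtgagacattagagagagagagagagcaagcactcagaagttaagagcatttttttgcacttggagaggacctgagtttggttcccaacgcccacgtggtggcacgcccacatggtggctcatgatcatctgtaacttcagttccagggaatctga
Psmb5, chr14:54618023-54618245, minus strand: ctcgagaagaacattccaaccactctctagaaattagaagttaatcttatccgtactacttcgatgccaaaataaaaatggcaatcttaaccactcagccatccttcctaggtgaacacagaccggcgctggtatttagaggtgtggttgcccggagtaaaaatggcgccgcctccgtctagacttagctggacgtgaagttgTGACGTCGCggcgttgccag
Psmb6, chr11:70525107-70525356, plus strand: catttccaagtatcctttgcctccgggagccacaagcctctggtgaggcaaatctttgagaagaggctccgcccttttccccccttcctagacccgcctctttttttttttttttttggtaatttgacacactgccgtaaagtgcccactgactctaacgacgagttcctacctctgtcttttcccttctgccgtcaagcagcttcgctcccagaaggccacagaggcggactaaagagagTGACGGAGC

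The gamma-activated letters of Psmb8 begin 97 bases before the start site, the antioxidant letters of Psmb5 begin 47 bases before it and those of Psmb6 begin 9 bases before it. Of all 32851 windows, 7.02% hold the gamma-activated letters and 10.2% the antioxidant letters. Of the 3 inducible genes 1 holds the gamma-activated letters, 1 holds CCAAT (33.8% of all windows) and none holds the interferon-stimulated letters (7.13% of all windows). Of 25 constitutive 20S and 19S genes with a window, 4 (16%) hold the antioxidant letters, 10 (40%) hold CCAAT and 2 (8%) hold the interferon-stimulated letters. Shares of the 25 are counted per gene, some of which have more than 1 window, and shares of all windows per window. The letters of nuclear respiratory factor 1 are in 6 of the 25 (24%) and in 5.19% of all windows. Those 6 members were an alpha-ring group, Psma2, Psma3 and Psma4, and the cap subunits Psmc4, Psmc5 and Psmd14, and 1 match of each is shown because this was the motif with the largest excess over all windows.
Psma2, chr13:14613042-14613070, plus strand: cgcgggctgaGCGCATGCGttaagtccgc
Psma3, chr12:70974536-70974564, plus strand: atggtttctgCGCACGCGCgctctctgct
Psma4, chr9:54950789-54950817, plus strand: cgcagtcctgCGCACGCGCgggagccata
Psmc4, chr7:28050242-28050270, minus strand: agagttactgCGCACGCGCaacatccttg
Psmc5, chr11:106256126-106256154, plus strand: tttcgcctccGCGCCTGCGcgatagagtg
Psmd14, chr2:61711604-61711632, plus strand: caggcggcctGCGCGTGCGctgtgtgctc
The 250-base windows of Psma2, Psma4 and Psmc5 overlap annotated exons by 176, 250 and 176 bases, among them exons of Mrpl32, AY074887 and Ftsj3. A match is a run of letters and was not tested as a binding site.

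Of the 31 constitutive subunits of the 20S and 19S, those called in WSB and Cast were nearly all higher and those called in NZO and B6 nearly all lower, while in 129, AJ, B6, NOD and PWK most were not called. Under TMM scaling 27 of 31 were higher and 0 lower in WSB (median log2 fold change 0.33, all tested genes -0.01), and 22 were higher and 1 lower in Cast (median 0.21, all genes 0.02). In NZO 1 was higher and 16 lower (median -0.16, all genes -0.02), and in B6 0 were higher and 13 lower (median -0.15, all genes 0.00). In PWK 1 was higher and 8 lower, in NOD 0 and 5, in 129 0 and 2, and in AJ 1 and 1. Of all tested genes, 25.6% were higher and 23.7% lower in WSB, 29.6% and 26.6% in Cast, and 27.2% and 26.6% in NZO. In B6 these shares were 14.6% and 11.7%, and in PWK 24.6% and 19%. The same shares apply to the counts by ring and cap below. The block was therefore above the other strains in WSB and Cast and below them in NZO and B6, by a median of at most 0.33.

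The size and, in NZO, the direction of that block shift depended on scaling. With library totals in place of TMM, the median of all genes moved from -0.02 to 0.19 in NZO and from -0.01 to -0.24 in WSB. On that scale 5 of the 31 were higher and 1 lower in NZO (median 0.05), 11 higher and 1 lower in WSB (median 0.10), 18 and 1 in Cast, 0 and 4 in B6, and 0 and 17 in PWK. Of all genes on that scale, 43.2% were higher and 14.5% lower in NZO, and 12.7% and 41.4% in WSB. These shares were 24.2% and 28.9% in Cast, 17.4% and 6.31% in B6, and 19.8% and 19.9% in PWK. Relative to the median gene the block was thus low in NZO and high in WSB on both scales, and on library totals its NZO median was above 0. With the leukocyte covariate the core numbered 3 higher and 0 lower in NZO (median 0.08), 14 higher and 1 lower in Cast (median 0.14), 0 higher and 16 lower in PWK (median -0.14), and 18 higher and 0 lower in WSB (median 0.21). In that fit 2589 of all 18603 tested genes were higher and 2648 lower in NZO, and 5332 and 4716 in Cast. These numbers were 4399 and 3582 in PWK, and 3461 and 2789 in WSB. In PWK the block numbered 0 higher and 20 lower without the 12 libraries rich in other tissues. Without them 4173 of 19000 tested genes were higher and 3052 lower in PWK.

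In the alpha ring, which gates the barrel, 6 of 7 subunits were higher in WSB and 5 of 7 in Cast. Psma7 had lowest, median and highest levels of 84.1, 111 and 131 CPM in WSB, 84.6, 97.8 and 117 CPM in Cast, and 59.6, 63.2 and 71.9 CPM in B6. The B6 libraries of Psma7 thus lay wholly below those of Cast and WSB. Its log2 fold change was 0.51 ± 0.07 in WSB, 0.34 ± 0.07 in Cast, -0.39 ± 0.07 in B6 (adjusted p = 3.21e-05) and 0.21 ± 0.07 in PWK, of which the PWK call did not hold with library totals (adjusted p = 0.117). Psma6 averaged 137 ± 36.8 CPM (SD, n = 7) in Cast against 97.1 CPM in the mean of the other strains, at 0.50 ± 0.07 (adjusted p = 4.45e-08). Psma1 was lower in NOD at -0.24 ± 0.07 (adjusted p = 0.00879). Of the 4 beta subunits without a catalytic site, Psmb1, Psmb3 and Psmb4 were higher in WSB and in Cast and lower in NZO under TMM. The fourth, Psmb2, was among the 3 members that no strain moved far: strain means lay between 57.6 CPM in NZO and 68.2 CPM in WSB (F-test adjusted p = 0.23).

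In the 19S base, 5 of 6 ATPases were higher in WSB and 4 of 6 in Cast. Psmc1 averaged 133 ± 28.7 CPM (SD, n = 7) in Cast and 76.6 ± 6.5 CPM (n = 8) in NZO, at 0.50 ± 0.07 (adjusted p = 1.11e-08) and -0.41 ± 0.07 (adjusted p = 1.39e-06), and both calls held with library totals. Another ATPase of the ring, Psmc4, went the other way in NZO at 0.26 ± 0.08 (adjusted p = 0.00539), where it averaged 78.3 ± 14.4 CPM. Psmc1 (-0.20 ± 0.07, adjusted p = 0.0494) and Psmc4 (-0.24 ± 0.09, adjusted p = 0.0491) were lower in 129 only just, and neither call held with library totals. Psmc6 was lower in NOD at -0.23 ± 0.07 (adjusted p = 0.00766).

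Of the 11 cap subunits without ATPase activity, 10 were higher in WSB and 9 in Cast. Psmd4, a receptor for ubiquitin chains, had the fifth largest share of variance between strains of all members (74.4%). Its lowest, median and highest levels were 119, 151 and 214 CPM in WSB, 138, 142 and 189 CPM in Cast, 85.6, 93.1 and 142 CPM in PWK, and 90, 105 and 119 CPM in 129. They were 85.3, 98.8 and 110 CPM in NOD, 88.4, 96.8 and 111 CPM in AJ, 83.7, 90.9 and 103 CPM in B6, and 75.4, 91.2 and 111 CPM in NZO. WSB and Cast stood high together, and every library of each was above the median of the others. The log2 fold change of Psmd4 was 0.59 ± 0.07 in WSB (adjusted p = 2.03e-10), 0.55 ± 0.07 in Cast (adjusted p = 3.54e-09), -0.31 ± 0.07 in B6 (adjusted p = 0.00111) and in NZO (adjusted p = 0.000389), and -0.20 ± 0.08 in AJ (adjusted p = 0.0466). With library totals the NZO and AJ calls of Psmd4 did not hold (adjusted p = 0.178 and 0.0853). Psmd11, a scaffold subunit of the lid, was higher in WSB (0.59 ± 0.06, mean 122 ± 14.4 CPM) and lower in B6 (-0.31 ± 0.07, mean 70.5 ± 6.72 CPM), with estimates that were not whole in 98.4% of libraries. Psmd8, another lid subunit, averaged 96.5 ± 22.6 CPM (n = 8) in PWK against 132 CPM in the other strains, at -0.44 ± 0.08 (adjusted p = 1.18e-05), and was higher in Cast at 0.38 ± 0.08.

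**Figure D3:**
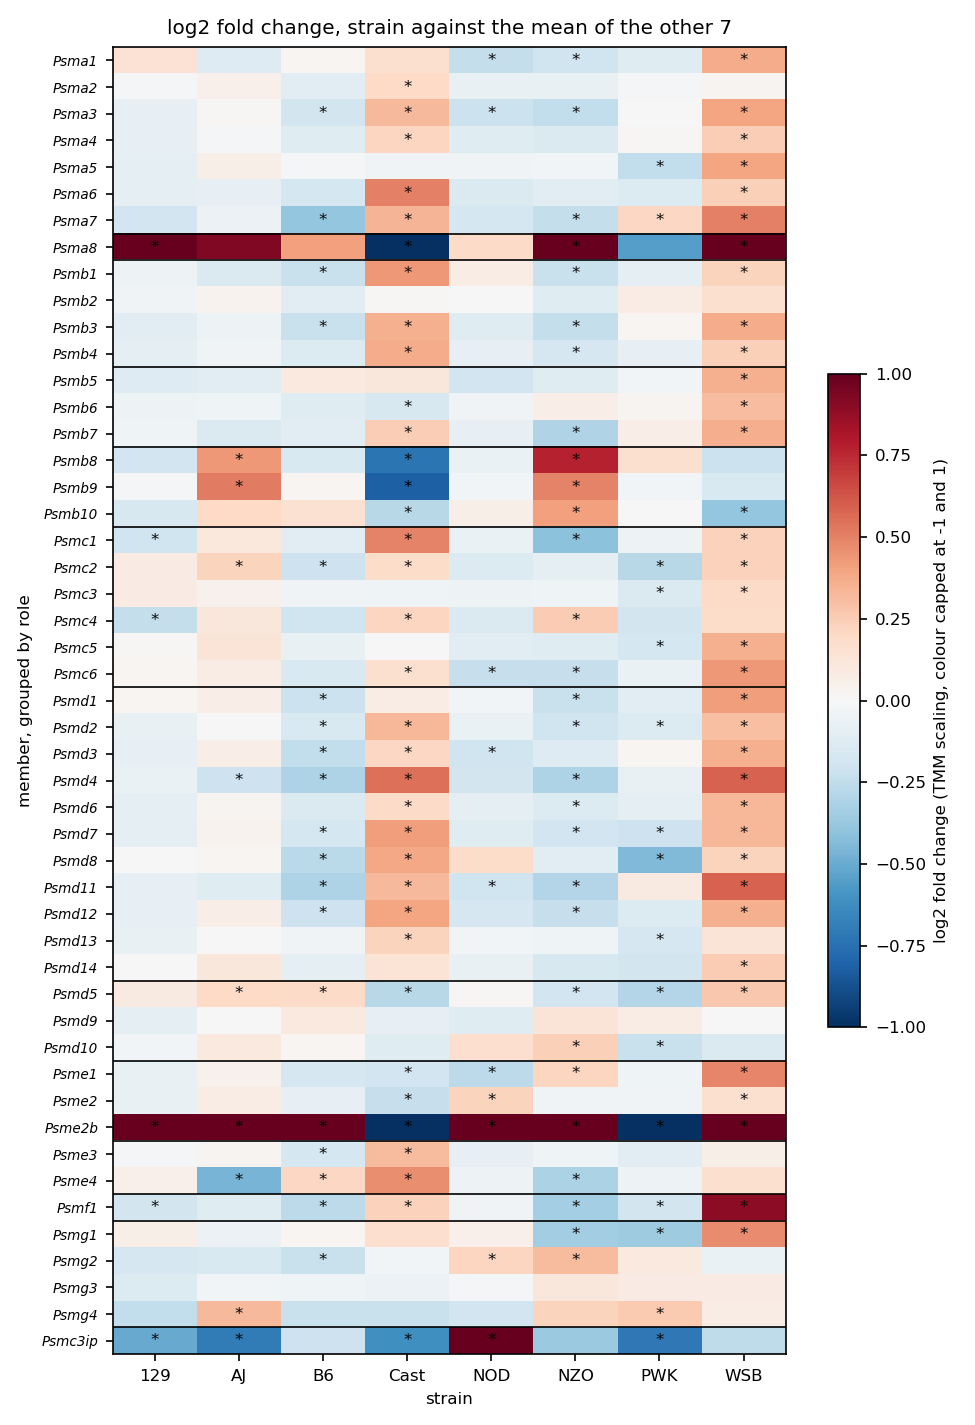
Log2 fold change of the 49 members (rows, in blocks by role) in each strain against the mean of the other 7 (columns), under TMM scaling; the colour is capped at -1 and 1, and an asterisk marks an adjusted p under 0.05. Most constitutive subunits are red in WSB and Cast, where 27 and 22 of 31 were higher, and the block of Psmb8, Psmb9 and Psmb10 is blue in Cast and red in NZO.

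The 11S activator, a ring of Psme1 and Psme2 that opens the barrel without ATP, is also induced by interferon gamma. Psme1 had lowest, median and highest levels of 77.9, 87.1 and 113 CPM in WSB, 64.3, 77.5 and 89.2 CPM in NZO, 47.5, 59.1 and 80.3 CPM in Cast, and 51.1, 57.0 and 64.4 CPM in NOD. All libraries of WSB and NZO were above the median of the others, and all of NOD were below it. The log2 fold change of Psme1 was 0.49 ± 0.06 in WSB (adjusted p = 6.63e-09), 0.21 ± 0.06 in NZO, -0.19 ± 0.07 in Cast and -0.26 ± 0.07 in NOD (adjusted p = 0.00283). The Cast call did not hold without Cast replicates 5 and 6 (-0.16, adjusted p = 0.116). Psme2 differed from Psme1 in NOD, where its lowest, median and highest levels were 71.9, 87.8 and 95.6 CPM (0.22 ± 0.07, adjusted p = 0.00911). In Cast Psme2 was lower (-0.23 ± 0.07, adjusted p = 0.00592), and in WSB it was 0.16 ± 0.07 under TMM (adjusted p = 0.0367) and -0.08 with library totals (adjusted p = 0.269). In NZO Psme2 was -0.03 under TMM and 0.18 with library totals (adjusted p = 0.00704).

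Psme2b (chr11:48945354-48946190, minus strand) is a copy of Psme2 (chr14:55587441-55591113, minus strand) with 1 coding exon, where Psme2 has 11. The coding sequences align over 717 bases with 5 mismatches, an identity of 99.3%, so few reads can tell them apart, and estimates of both were not whole in 85.2% of libraries. Bases 454 to 543 of the coding sequence, counted from the start codon, hold 3 of the 5 mismatches and are shown from GENCODE transcripts with mismatches in capitals.
Psme2: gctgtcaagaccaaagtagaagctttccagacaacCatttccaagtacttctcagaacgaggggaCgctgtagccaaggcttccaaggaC
Psme2b: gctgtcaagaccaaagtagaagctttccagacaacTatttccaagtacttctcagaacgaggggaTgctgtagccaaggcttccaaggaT
Psme2b had under 3 estimated reads in 6 of 7 Cast and 7 of 8 PWK libraries, with at most 4.79 and 5.07 reads in any. In every library of the other strains it had between 24.2 and 223 reads, and strain means ran from 1.91 ± 0.494 CPM in 129 (n = 7) to 3.91 ± 0.941 CPM in NZO (n = 8). It was lower in Cast (adjusted p = 1.87e-15) and in PWK (adjusted p = 1.78e-16) and higher in each of the other 6 strains against a mean that includes those 2. The fitted fold changes rest on the prior count and are left out. The sum of Psme2 and Psme2b was 65.5 ± 9.68 CPM in Cast and 73.7 ± 14 CPM in PWK, against 73.8 to 88.8 CPM in the other strains. By these estimates the copy was a small part of the sum in every strain. Since few reads can tell the 2 genes apart, how the sum divides between them is uncertain.

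The activator Psme4, which caps the barrel in the nucleus, was lower in AJ at -0.46 ± 0.08 (adjusted p = 1.67e-05), where its lowest, median and highest levels were 84.6, 90.3 and 105 CPM. It was higher in Cast at 0.46 ± 0.08 (125, 170 and 188 CPM) and in B6 at 0.21 ± 0.07, and lower in NZO at -0.31 ± 0.08, a call that did not hold with library totals (adjusted p = 0.21). Every AJ library lay below every Cast library. Psme3, the nuclear 11S activator, was higher in Cast (0.32 ± 0.06) and lower in B6 (-0.18 ± 0.06).

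Psmf1 (chr2:151715812-151744186, minus strand), the inhibitor of the 20S known as PI31, set WSB apart. Its lowest, median and highest levels were 52.5, 54.3 and 59.4 CPM in WSB, 31.8, 37.8 and 42.5 CPM in Cast, 28.7, 31.4 and 34.3 CPM in NOD, and 26.7, 29.9 and 33.1 CPM in AJ. They were 25.1, 29.5 and 31.8 CPM in 129, 26.3, 27.1 and 39.1 CPM in PWK, 25.5, 27.4 and 32.3 CPM in B6, and 22.1, 25.9 and 30.4 CPM in NZO. Every WSB library exceeded every library of another strain. The log2 fold change in WSB was 0.89 ± 0.05 (adjusted p = 2.39e-23), and 0.66 with library totals, and 88.8% of the variance of Psmf1 lay between strains. Psmf1 was also lower in NZO at -0.34 ± 0.05 (adjusted p = 1.85e-07), which did not hold with library totals (adjusted p = 0.122). Only Psmf1 in WSB and Psmc3ip in NOD had ranges that did not overlap those of any other strain, and 4.22% of all tested genes had at least 1 strain set apart in this way.

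Psmc3ip (chr11:101091823-101095436, minus strand) matches the symbol rule but is no subunit: it encodes a partner of meiotic recombinases that was named for binding Psmc3. It had 11.7, 13.3 and 14.5 CPM (lowest, median and highest) in NOD and at most 3.59 CPM in any library of another strain. The log2 fold change in NOD was 3.37 ± 0.13 (adjusted p = 1.88e-29). Its estimates were not whole in 100% of libraries, and the search for similar transcripts found none over 50% of its length. The lower calls of Psmc3ip in 129, AJ, Cast and PWK are set against a mean that includes NOD.

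Psma8, the alpha subunit of the testis, was near the limit of detection, with a mean of 0.623 CPM. It had 0 reads in 6 of 7 Cast libraries and 2 in the other, against 5 to 141 reads in 129, AJ, B6, NOD, NZO and WSB. In PWK it had 1 to 71 reads. Psma8 was called lower in Cast (adjusted p = 1.92e-09) and higher in 129, NZO and WSB. Single libraries carried much of its spread: 3.24 CPM in NZO replicate 4, 3 CPM in WSB replicate 7 and 1.56 CPM in PWK replicate 5, all chosen after their values were seen, and the duct markers there (2 of the 8 listed are in the table) summed to 0.221, 0.127 and 0 CPM.

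**Figure D4:**
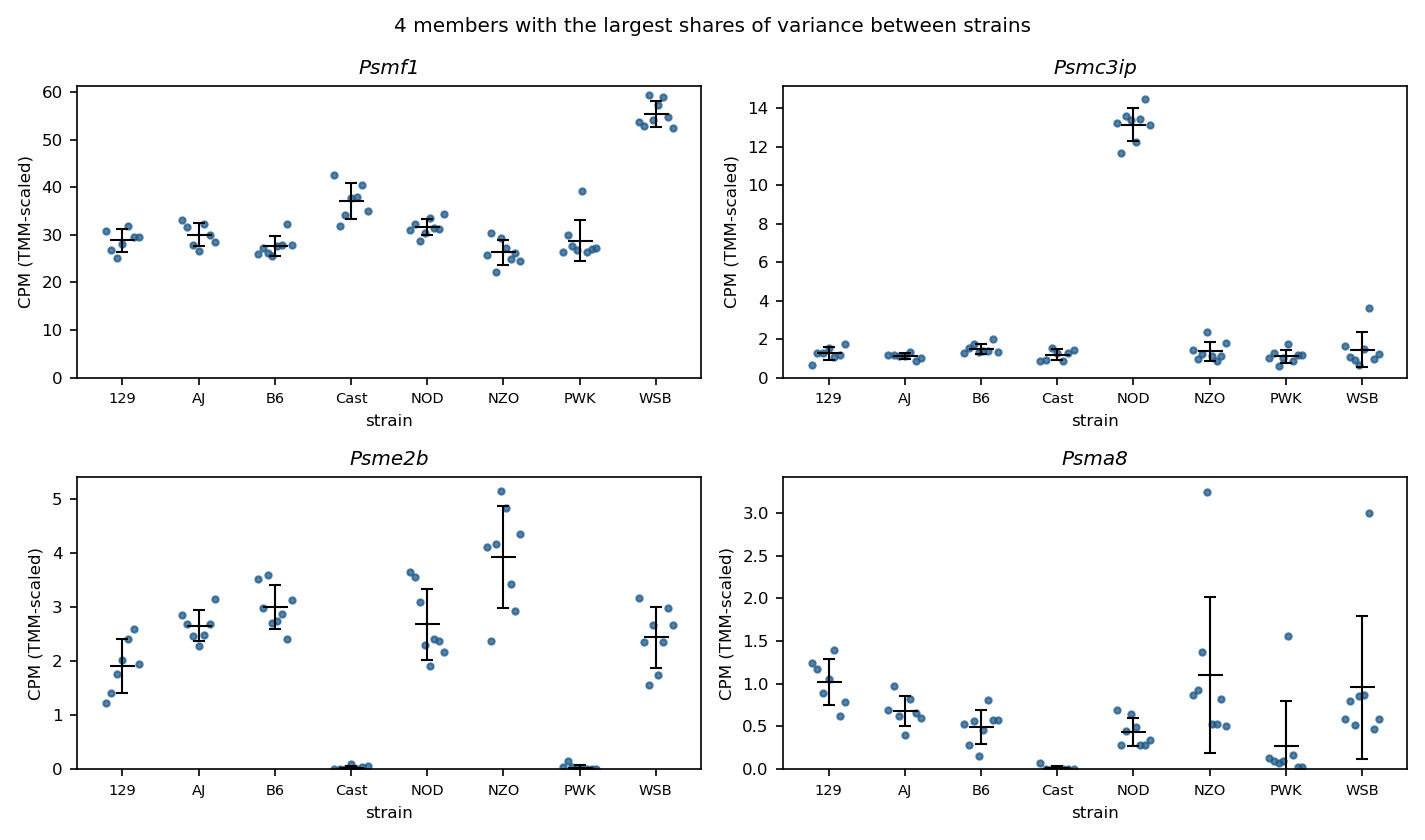
CPM (TMM-scaled, linear axes from 0) by strain of Psmf1, Psmc3ip, Psme2b and Psma8; each point is a library, and the bar is the mean with its SD, cut at 0. All WSB libraries of Psmf1 (52.5 to 59.4 CPM) and all NOD libraries of Psmc3ip (11.7 to 14.5 CPM) stand above the rest, and Psme2b is near 0 in Cast and PWK.

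The chaperones that assemble the rings and the base differed among themselves. Psmg1, which pairs alpha subunits, was higher in WSB (0.47 ± 0.08, mean 17.5 ± 1.55 CPM) and lower in PWK (-0.36 ± 0.08, mean 10.6 ± 3.2 CPM) and NZO (-0.35 ± 0.08, mean 10.6 ± 1.49 CPM), of which the NZO call did not hold with library totals (adjusted p = 0.0711). Psmg2, its partner, was higher in NZO (0.31 ± 0.07, adjusted p = 0.000119), on the other side from Psmg1. Psmg4 was higher in AJ (0.33, adjusted p = 0.0275) and just so in PWK (0.26 ± 0.11, adjusted p = 0.0441), and the PWK call did not hold with library totals. Psmg3 did not differ among strains by the F-test (adjusted p = 0.459, strain means 4.69 to 5.45 CPM), nor did the base chaperone Psmd9 (adjusted p = 0.252, 14.1 to 16.4 CPM). Psmd5, another base chaperone, was higher in AJ (0.20 ± 0.06, adjusted p = 0.0179) and B6 (0.19 ± 0.06, adjusted p = 0.0146) and lower in Cast (-0.27 ± 0.07) and PWK (-0.29 ± 0.06), and these 4 calls held with library totals. It was also higher in WSB (0.27 ± 0.06, adjusted p = 0.000158) and lower in NZO (-0.19 ± 0.06, adjusted p = 0.00835), calls that did not hold with library totals (0.04, adjusted p = 0.624, and 0.02, adjusted p = 0.855).

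The F-test among the 8 strains called 46 of 49 members and 89.9% of all tested genes, so the share of members was near the background. The median share of a member's variance that lay between strains was 52.5%, and 48.7% over all genes. Against the mean of the other strains, 34 members were higher and 1 lower in WSB (25.6% and 23.7% of all genes), and 25 higher and 10 lower in Cast (29.6% and 26.6%). In NZO 9 were higher and 20 lower (27.2% and 26.6%), and with library totals 18 and 1 (43.2% and 14.5% of all genes on that scale). With library totals WSB had 16 and 9 (12.7% and 41.4%) and Cast 20 and 10 (24.2% and 28.9%).

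In B6 3 members were higher and 16 lower (14.6% and 11.7% of all genes), and 3 and 5 with library totals (17.4% and 6.31%). In PWK 2 were higher and 14 lower (24.6% and 19%), and 0 and 24 with library totals (19.8% and 19.9%). In AJ 6 were higher and 3 lower (13.4% and 9.59%), in NOD 4 and 6 (14.7% and 11.8%), and in 129 2 and 4 (10.8% and 7.78%). Under TMM the shares of members lay above background for higher calls in WSB and Cast and for lower calls in B6, NZO and PWK, and near or below it elsewhere. With library totals those in NZO lay below background in both directions, while those for higher calls in WSB and Cast and for lower calls in B6 and PWK stayed above it. Median absolute log2 fold changes of members were below those of all genes in every strain, for example 0.27 against 0.34 in WSB and 0.23 against 0.40 in Cast.

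Partners outside the symbol rule were less uniform. Of 9 tested proteasome partners, 6 were higher and 0 lower in WSB, and 3 were higher and 4 lower in NZO. The shares of all genes higher and lower were 25.6% and 23.7% in WSB, 27.2% and 26.6% in NZO, and 29.6% and 26.6% in Cast. Adrm1, a ubiquitin receptor of the cap, followed the core, with 118 CPM in WSB, 105 CPM in Cast and 69.4 CPM in NZO (0.52, adjusted p = 6.24e-09, 0.33, adjusted p = 0.000124, and -0.35, adjusted p = 5.7e-05). Pomp, the maturation factor of the 20S, was higher in WSB (0.20, adjusted p = 0.00245). Of 6 genes that regulate proteasome genes, 4 were higher and 1 lower in Cast and 3 higher and 0 lower in WSB. The lower gene in Cast was Nfe2l1, the factor that drives the response of proteasome genes to proteasome loss, with 462 CPM (-0.23, adjusted p = 0.0117), and in WSB it was not called (0.09, adjusted p = 0.295).

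Within strains the members fell into a large and a small set. With strain means removed, Pearson r over 61 libraries had a median of 0.698 (0.195 to 0.89) over the 465 pairs of core subunits and -0.0297 between core subunits and all other tested genes. Among the 3 inducible subunits r was 0.701 to 0.841. Between core and inducible subunits the median was 0.174 (-0.253 to 0.505), and for the pairs that replace each other r was 0.45 for Psmb8 and Psmb5, 0.0852 for Psmb9 and Psmb6 and 0.213 for Psmb10 and Psmb7. Psme1 and Psme2 (r = 0.766 with each other) stood between, with medians of 0.511 to the core and 0.539 to the inducible subunits. Psmf1 was nearly unrelated to the core (median 0.0662). Psma8, near the limit of detection with a mean of 0.623 CPM, had a median of -0.214 with it. These correlations describe libraries that share strains, depth and cell content.

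**Figure D5:**
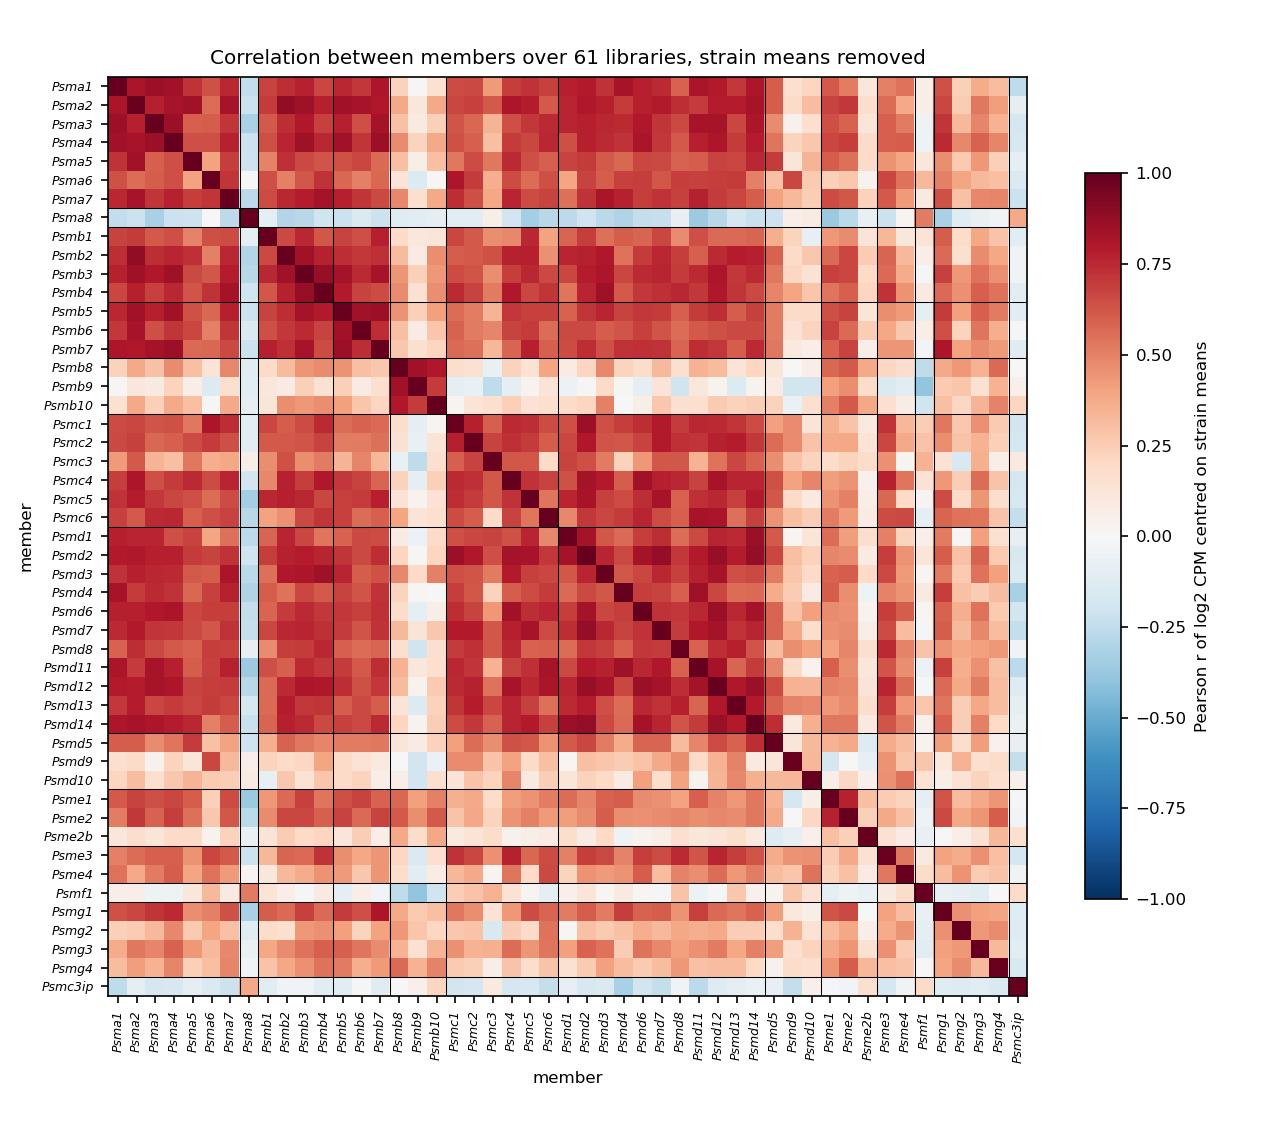
Pearson r of log2 CPM between all pairs of the 49 members over 61 libraries after removing strain means, in blocks by role; both axes list the members, and colour runs from -1 to 1. The core blocks are red (median r 0.698), the block of Psmb8, Psmb9 and Psmb10 is a separate red square, and the bands of Psma8, Psmf1 and Psmc3ip are pale.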

How the data were processed

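The authors deposited expected counts (estimated counts, which need not be whole) for 21169 genes in 61 libraries of poly(A) RNA, and log2 values they had made with a variance-stabilising transformation. The submitters' processing notes name DESeq2 and the build GRCm38; the aligner and counter are not given in the sources used here. Of the deposited counts, 21.1% were not whole within 1e-06.

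Counts were rounded, filtered with filterByExpr by strain (18603 genes kept), given TMM factors and modelled with edgeR 4.0.16 (R 4.3.3) with 1 mean per strain and robust quasi-likelihood dispersion. Each strain was tested against the unweighted mean of the other 7, with Benjamini-Hochberg adjustment over all genes and a threshold of 0.05. Logged CPM and ratios used a prior count of 2. Ratios were compared by 2-sided exact permutation tests over all regroupings of the libraries (numpy 2.4.6), and the fit was tested on simulated data. Marker sums are CPM of the library total. The core is the 31 constitutive 20S and 19S subunits. Similar transcripts were sought with blastn 2.17.0 in GENCODE transcripts (at least 95% identity over 50% of the length). Promoter windows and motif letters come from RefSeq, GRCm38.p6.

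Alternatives were RLE factors, no filter, a mean of at least 5 CPM, DESeq2 1.42.0, limma 3.58.1 on the deposited log2 values, a replicate block, Xist or leukocyte markers as covariate, left-out libraries, no genes whose estimates were mostly not whole, and, chosen after seeing the data, library totals. For the ratios they were left-out libraries, the deposited log2 values and a prior count of 0.5, and, chosen after seeing the data, a replicate block and log2 Xist removed with 1 slope within strains. Named members are the catalytic subunits, Psme1, Psme2, the 5 whose variance lay most between strains, up to 3 called each way per strain, those under 1 CPM and those the F-test did not call. Members, lists and rules were chosen with earlier results of these data known. Genes and values given beyond the rule (such as Psme3, Psmg2, Psmb1, Psmb3, Psmb4 and the list genes) serve as examples and were picked after their values were seen.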

Additional observations from a re-analysis of the deposited data

Results flagged for a closer look

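In 88 groups (8 members and 3 ratios in 8 strains) a search for a library far from the others of its strain marked 7; chance flags about 1 in 20 groups. Psmb8 was 78.8 CPM in AJ replicate 3, where the other AJ libraries had 43.9 to 56.0 CPM, and 43.2 CPM in Cast replicate 5, where the others had 17.5 to 25.5 CPM. Psmb9 was 5.51 CPM in Cast replicate 1 (others 9.12 to 11.4 CPM). Psmb7 was 110 CPM in NOD replicate 7 (others 83.7 to 95.5 CPM), and Psme2 was 83.4 CPM in B6 replicate 2 (others 67.6 to 73.3 CPM). The log2 ratio of Psmb9 to Psmb6 was -2.51 in PWK replicate 2 (others -2.09 to -1.82), and that of Psmb10 to Psmb7 was -1.25 in AJ replicate 4 (others -1.78 to -1.63). AJ replicates 3 and 4 and PWK replicate 2 are among the 12 libraries rich in markers of other tissues, and Cast replicate 5 had the highest leukocyte marker sum of its strain, 683 CPM. Their part in these values was not tested.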

How the results depend on the processing

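Of 162 alternative counts of called members or strain pairs, 13 moved by over 1.5 times. In 129 the 6 called members became 3 at a mean of at least 5 CPM, 3 with limma, 3 without the libraries rich in other tissues, 2 without genes whose estimates were mostly not whole and 2 with library totals. In AJ the 9 became 4 without the rich libraries, and in PWK the 16 became 27. In B6 the 19 became 8 with library totals, and in NZO the 29 became 19 with library totals and 10 with the leukocyte covariate. With the replicate number as a block the strain pairs called for each of the 3 ratios became 0 (exact sign-flip test, lowest adjusted p = 0.071), where 5 to 8 pairs allow no p below 0.0625 to 0.00781. At an unadjusted p under 0.05 it called 37 of 84, against 56 without pairs, and 83 differences kept their sign. The cause was not tested. For the 8 catalytic and activator genes, 898 of 936 alternative fold changes kept direction and call, 19 lost the call, 15 gained it and 4 reversed: Psmb5 (0.31) and Psmb7 (0.23) in NZO with the leukocyte covariate, and Psme2 in NZO (0.18) and WSB (-0.079) with library totals. With the replicate number as a block, 46 members were called by the F-test, and 4 in 129, 9 in AJ, 19 in B6, 34 in Cast, 11 in NOD, 30 in NZO, 17 in PWK and 38 in WSB. The labels do not say that a number marks shared mice or batches, and the numbers were not taken as pairs: 96 of 186 same-numbered pairs of libraries correlated over 0.1 (median 0.108, -0.444 to 0.56, against -0.0184 for other numbers), and 21 of 61 libraries were closest to one of their own number. Estimates were not whole in over 50% of libraries for 11 members.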
